A study of Mus musculus with 40 samples.

Results

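The remote myocardium is the part of the left ventricle away from an infarct, muscle that keeps its blood supply and carries the load after the injured wall has been lost. Its RNA was compared between day 7 and day 14 after a coronary artery had been tied off for good in adult C57BL/6 mice, with 4 mice on each day. The compared libraries are the 8 of the uninjured region on those days, of 40 libraries in the series, and 11390 of the 11450 genes of the deposited table were tested. The mice labelled A7, A9, A10 and A12 gave day 7, and those labelled A4, A5, A6 and A11 gave day 14. Every mouse had the same operation, and each heart also gave a library of its fibrotic scar, used here to ask whether the scar took the same step. Remote libraries of days 3, 21 and 42 (4 mice each) share the estimate of the spread. No sham-operated or unoperated heart was analysed here, so all values are set against another day after injury. The labels give no sex. Xist, the RNA that coats the inactive X chromosome of females, reached 1 RPKM in 2 of 4 mice at day 7 and 3 of 4 at day 14.

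Heart muscle cells make up most of the ventricle by volume and divide little in the adult. They burn mainly fatty acids in mitochondria to feed the sarcomere. The other cells of the tissue, among them fibroblasts, endothelial cells, pericytes and macrophages, can divide and respond to signals released from an infarct. In the weeks after an infarct the remote wall is known for stretch, a passing inflammatory phase and a slower growth of the surviving muscle cells.

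Values are RPKM, reads scaled to transcript length and library size, as deposited. The day 7 libraries held 19958794 to 24103276 reads over the genes of the table, worked back from the deposited values. The day 14 libraries held 24416169 to 27799207, so depth did not overlap between the days. A log2 difference below is day 14 minus day 7 of log2(RPKM + 1) with its standard error, a scale that understates changes of low genes. The test was limma over 20 remote libraries with 15 residual degrees of freedom, adjusted by Benjamini-Hochberg over 11390 genes, and a gene is said to have risen or fallen only at an adjusted p under 0.05. Markers of heart muscle dominated the tissue: the summed level of 8 cardiomyocyte markers was 20480 to 25940 RPKM at day 7 and 27560 to 32340 at day 14. Of the lymphocyte markers 2 of 5 were in the table, of the atrial markers 1 of 4, and of the adipocyte and Schwann cell markers 0 of 3 each. In bulk tissue, fewer cells of a type and less RNA per cell cannot be told apart.

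Of the genes tested, 853 rose (7.49%) and 633 fell (5.56%), which is 1486 in all (13.0%). Counts of rises and falls in gene lists below are to be read against these shares. Most changes were small. The median log2 difference was 0.37 among genes that rose and -0.45 among genes that fell, and 16 rose but 92 fell by at least 1 on the log2 scale. The 4 day 14 values lay wholly above the 4 day 7 values for 630 of the genes that rose and wholly below for 531 of those that fell. Over all genes tested, called or not, day 14 lay wholly above for 1088 (9.55%) and wholly below for 831 (7.30%). The totals leaned on single mice: 271 rose and 357 fell without A7 of day 7, 259 rose and 357 fell without A12, 301 rose and 382 fell without A5 of day 14 and 244 rose and 369 fell without A6. The largest falls were in histone genes and genes of cell division. The largest rises were in Myh7, Atf3, Nr4a1, Scgb1c1, Ddit4 and Gsn. The call of Nr4a1, a nuclear receptor among the immediate early genes, was lost without any of A7, A10 or A12 of day 7 or A4, A5 or A6 of day 14 (adjusted p 0.0613 to 0.107), and its days overlapped.

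The split between rises and falls moved with the scaling of the libraries. The deposited library sizes were not proportional to the reads recovered here. The ratio of recovered reads to deposited size, relative to a day 3 scar library, did not overlap between the days. It was 1.43 to 1.585 at day 7 and 1.62 to 1.71 at day 14. With the libraries set to equal totals of recovered reads, the median of all genes moved from 0.03 to -0.09, and 117 genes rose and 1010 fell. Under that scaling 10.4% of calls were rises, against 57.4% as deposited. With quantile normalization 525 rose and 626 fell (45.6% rises). The change also went with base composition. Across 11110 genes the log2 difference had a Spearman correlation of 0.39 with the GC content of the transcript and of -0.21 with its length, a description over genes that share the same 8 libraries. Median GC content was 55.02% in genes that rose, 45.8% in genes that fell and 49.3% in all. After adjustment for both, 612 genes rose and 560 fell.

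**Figure D1:**
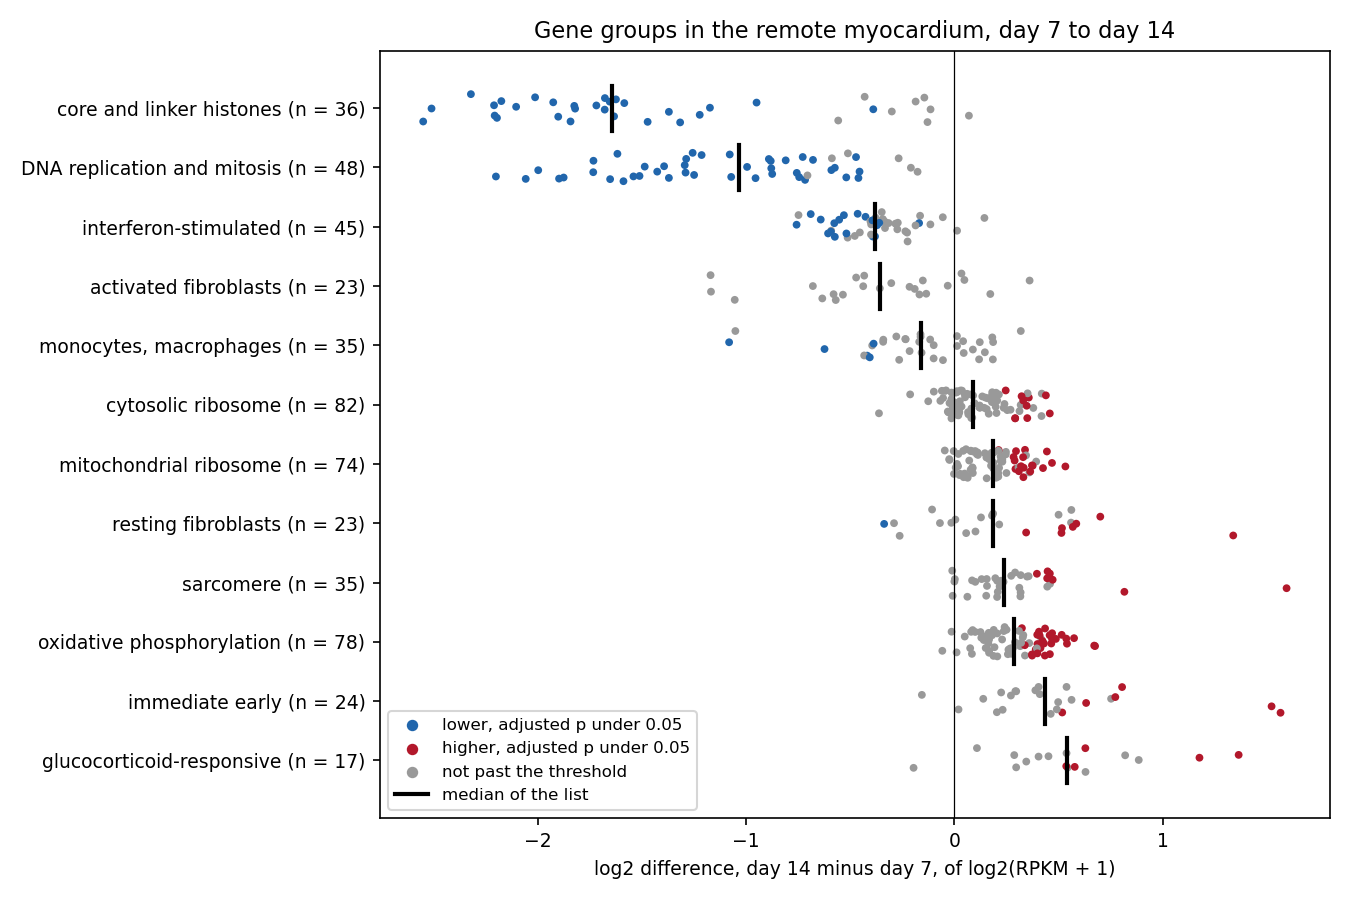
Each point is a gene of the named group, placed by its log2 difference between day 14 and day 7 in the remote region (x axis, log2 of RPKM + 1), with n the members tested and a black bar at the group's median. The histone and cell division groups lie far to the left, with medians of -1.64 and -1.03.

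Most genes of DNA replication and mitosis fell. Of 48 genes of this list 42 fell and 0 rose, and the list's median was -1.03 against 0.03 over all genes tested. Mki67, which encodes the proliferation marker Ki-67 (mm10 chromosome 7, 135689784 to 135716361), stood at 17.8, 10.1, 18.8 and 20.2 RPKM in the day 7 mice A7, A9, A10 and A12. It stood at 3.34, 3.15, 1.59 and 3.21 in the day 14 mice A4, A5, A6 and A11, and this order of mice is kept below. Mouse A9 was the lowest at day 7 but lay well above every day 14 mouse. The mean was 16.7 ± 4.50 RPKM (SD, n = 4) at day 7 and 2.82 ± 0.822 at day 14, a 5.92-fold drop and a log2 difference of -2.20 ± 0.31 (limma adjusted p = 0.000265). These values rest on 2011 to 3837 reads per library at day 7 and 329 to 639 at day 14.

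The fall reached genes of replication, of the cyclins and of the spindle but was not of one size. Among 15 genes of replication licensing and DNA synthesis 13 fell, with a median of -0.68. Mcm6, a subunit of the helicase that opens replication origins, went from 11.3, 7.44, 10.02 and 9.44 RPKM to 4.82, 4.49, 4.23 and 5.05. Pcna, the sliding clamp of the replicative polymerases, went from 19.5, 14.3, 19.4 and 17.1 RPKM to 12.99, 12.2, 13.04 and 11.03. In both genes no day 14 value reached a day 7 value. Mcm2, another subunit of the same helicase, did not pass (-0.18 ± 0.17, adjusted p = 0.534), nor did Rrm2, a subunit of the enzyme that makes deoxyribonucleotides (-0.51 ± 0.36, adjusted p = 0.372). Of 6 cyclin and cyclin-dependent kinase genes 5 fell, with a median of -1.16. Ccna2, the cyclin of S and G2 phase, fell from 12.8, 7.84, 13.2 and 11.8 RPKM to 2.23, 2.64, 1.32 and 2.22 (-1.997 ± 0.33, adjusted p = 0.000761). Ccne1, a cyclin of the entry into S phase, did not pass (-0.21 ± 0.12, adjusted p = 0.264).

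Among 21 genes of the spindle, the kinetochore and cytokinesis 18 fell, with a median of -1.37. Cenpe, a kinetochore motor, had the smallest p of the list and went from 3.81, 2.35, 3.94 and 4.05 RPKM to 0.598, 0.647, 0.311 and 0.635 (-1.54 ± 0.17, adjusted p = 1.72e-05). Kif11, the motor that pushes the spindle poles apart, went from 9.02, 5.05, 8.97 and 8.74 RPKM to 1.37, 1.51, 0.769 and 1.91. Top2a, the topoisomerase that untangles sister chromatids (chromosome 11, 98992943 to 99024189), went from 14.5, 8.35, 16.3 and 15.1 RPKM to 2.49, 2.67, 1.61 and 3.04. Mouse A9 was the lowest of the day 7 mice in each of these genes, and the days did not overlap in any of them. Pbk, a kinase of mitotic cells, showed a 7.91-fold drop of the mean (-2.05 ± 0.23, adjusted p = 2.34e-05). The count of falls in the whole list was 39 to 43 when each of the 8 libraries was left out in turn, 43 with equal read totals and 42 with quantile normalization.

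Promoter sequences of 3 of the genes that fell are shown as examples in which 2 short elements, found in part of the list, occur. They are the 250 bases before the RefSeq start (build GRCm38.p6), chr7:135716380-135716629 on the minus strand for Mki67, chr11:99024190-99024439 on the minus strand for Top2a and chr19:37376132-37376381 on the plus strand for Kif11. Capitals mark TTTGAA, the core of the cell cycle genes homology region, and the CCAAT box, each on either strand.
Mki67: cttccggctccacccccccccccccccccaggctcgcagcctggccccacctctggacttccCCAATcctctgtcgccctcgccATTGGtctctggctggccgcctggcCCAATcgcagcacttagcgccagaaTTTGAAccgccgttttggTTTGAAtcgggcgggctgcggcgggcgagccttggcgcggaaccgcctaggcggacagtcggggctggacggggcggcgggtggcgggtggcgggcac
Top2a: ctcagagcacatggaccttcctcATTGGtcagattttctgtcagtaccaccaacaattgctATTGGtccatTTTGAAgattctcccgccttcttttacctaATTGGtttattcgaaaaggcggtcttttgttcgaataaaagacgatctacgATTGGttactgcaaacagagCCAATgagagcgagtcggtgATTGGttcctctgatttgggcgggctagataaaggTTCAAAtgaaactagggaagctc
Kif11: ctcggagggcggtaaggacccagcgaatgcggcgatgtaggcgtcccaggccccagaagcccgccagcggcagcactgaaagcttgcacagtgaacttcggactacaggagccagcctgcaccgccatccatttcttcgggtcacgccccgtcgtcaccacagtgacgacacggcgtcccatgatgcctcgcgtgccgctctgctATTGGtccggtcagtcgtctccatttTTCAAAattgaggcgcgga
In this order the windows hold 2, 2 and 1 matches to TTTGAA and 3, 6 and 1 to CCAAT. Of the 42 genes that fell, 33 had an entry in the RefSeq promoter table, whose windows of 300 bases run from 250 before to 50 after the start. TTTGAA was found in 17 of those 33 (51.5%), against 14.1% of the 8550 tested genes with an entry and 20.2% of all 27025 genes of the promoter table. CCAAT was found in 26 (78.8%), against 42.5% and 41.1%. The E2F-type motif, TTT and CGC with any 2 bases between them, was found in 10 (30.3%), against 9.89% and 5.93%. These are matches to letters on both strands, and binding was not tested. List members that did not fall were not counted apart, so these shares describe the list and not the fall.

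**Figure D2:**
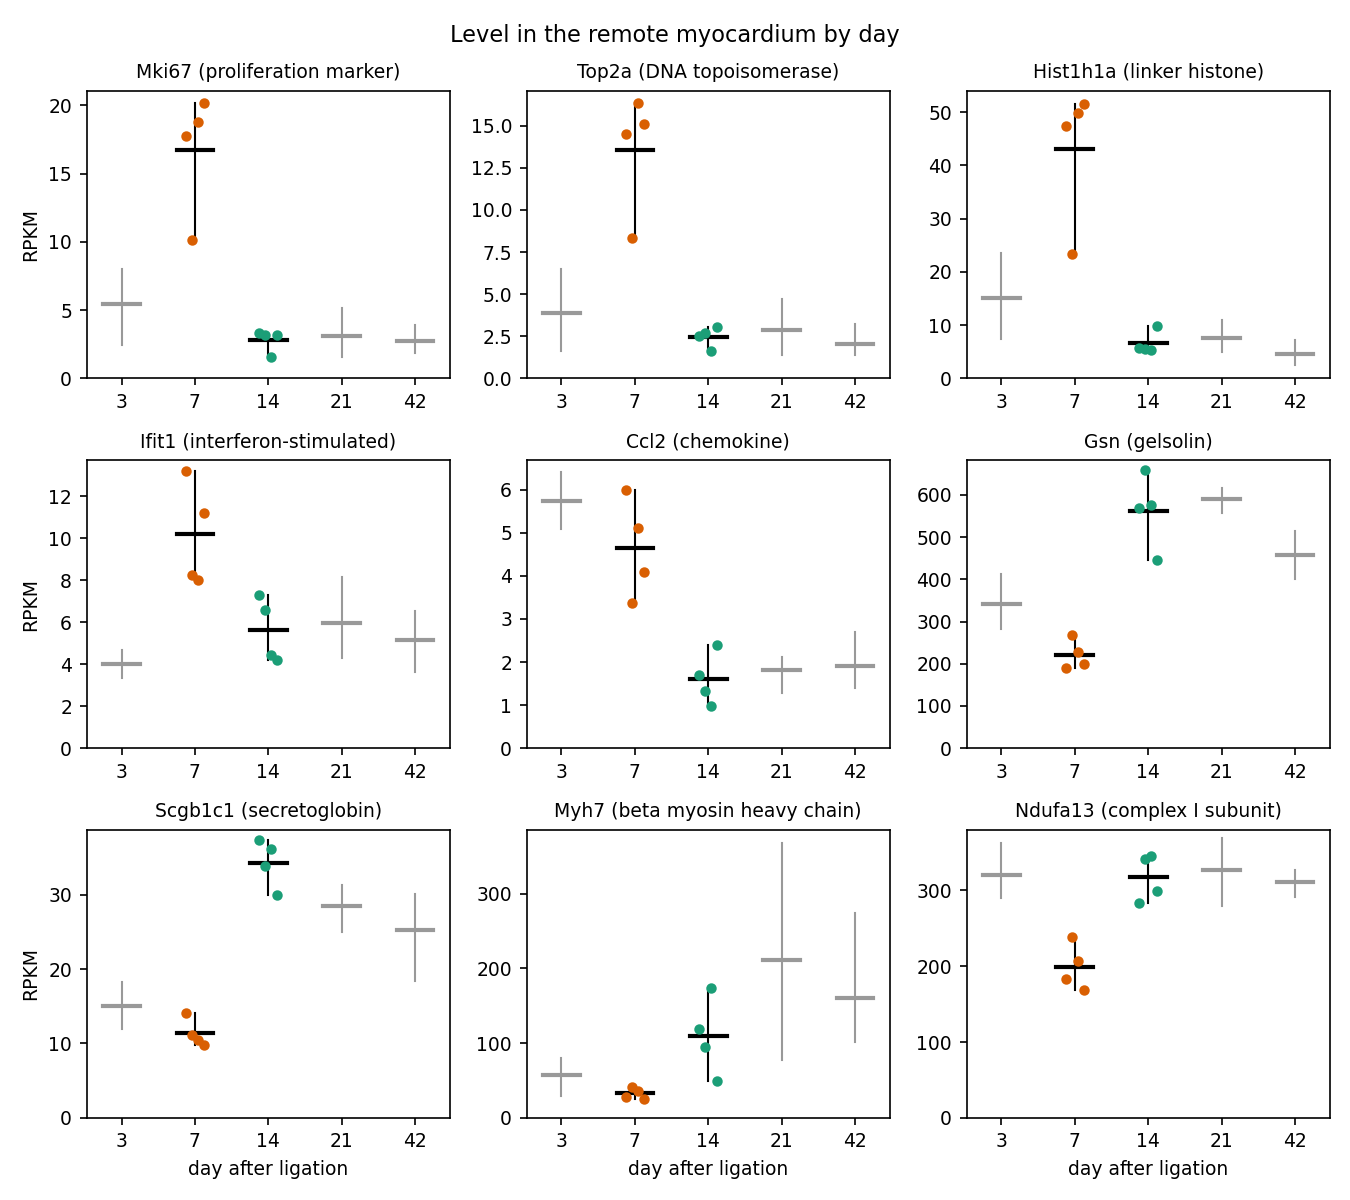
Level in RPKM (y axis, from 0) in the remote region on each day after ligation (x axis), with the bar at the mean and the line from the lowest to the highest of 4 mice. Coloured points are single mice of day 7 and day 14, and for Mki67 the day 7 mean of 16.7 RPKM stands above the means of the other days.

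Most genes of the histone clusters, a class made mainly during S phase, fell as well. This group was taken by gene name alone, so not every member need be tied to S phase. It was added after values had been seen. Of 36 such genes tested 28 fell and 0 rose, with a median of -1.64. Hist1h1b, a linker histone (chromosome 13, 21779883 to 21780625), went from 44.3, 23.4, 50.5 and 48.4 RPKM to 4.32, 4.67, 5.44 and 11.3, the most negative log2 difference of all genes called (-2.55 ± 0.45, adjusted p = 0.00169). Hist1h1a, another linker histone, went from 47.3, 23.3, 49.9 and 51.6 RPKM to 5.65, 5.57, 5.39 and 9.75 (-2.51 ± 0.34, adjusted p = 0.000159). Mouse A9 was again the lowest at day 7, and mouse A11 the highest at day 14. Of the 12 largest falls whose days did not overlap, 9 were histone genes. The 8 genes that did not pass included the linker histone Hist1h1c (-0.14 ± 0.11, adjusted p = 0.389) and the core histone Hist1h2bc (0.07 ± 0.12, adjusted p = 0.744). Histone copies are nearly identical and reads may have been split among them, so single members are uncertain.

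Interferon-stimulated genes, the antiviral set switched on by interferon receptors, fell in part. Of 45 tested 18 fell and 0 rose, with a median of -0.38. Ifi47, an interferon-induced GTPase, went from 4.37, 3.26, 3.69 and 3.77 RPKM to 2.52, 1.66, 2.29 and 2.09 (-0.61 ± 0.11, adjusted p = 0.00147). Mx1, an antiviral GTPase, went from 1.19, 0.611, 1.03 and 1.57 RPKM to 0.303, 0.401, 0.321 and 0.289 (-0.64 ± 0.12, adjusted p = 0.00172). The days did not overlap in either gene, and Ifi204, Oasl2 and Bst2 fell as well. Of the regulators, Stat2 fell (-0.37 ± 0.10, adjusted p = 0.019), a call lost without mouse A7 or A12 of day 7 or A5 of day 14 (adjusted p = 0.0625, 0.0813 and 0.0679). Irf7 (-0.38 ± 0.14, adjusted p = 0.0713) did not pass as deposited and passed with equal read totals (adjusted p = 0.0398). The number of genes that fell was 5 without mouse A7 and 5 without A12 of day 7, 10 without A5 and 7 without A6 of day 14, and 23 without A9 of day 7. With equal read totals 24 fell.

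Bst2 and Ifit1 are shown from the interferon-stimulated genes that fell and had a single promoter window. They had the smallest p among those whose 250 bases before the RefSeq start (GRCm38.p6) hold the interferon response element. The element is 2 copies of GAAA with any 2 bases between them, in capitals on either strand. Genes without an entry or with several windows were not considered for display. The windows shown lie at chr8:71537473-71537722 on the minus strand and chr19:34640639-34640888 on the plus strand.
Bst2: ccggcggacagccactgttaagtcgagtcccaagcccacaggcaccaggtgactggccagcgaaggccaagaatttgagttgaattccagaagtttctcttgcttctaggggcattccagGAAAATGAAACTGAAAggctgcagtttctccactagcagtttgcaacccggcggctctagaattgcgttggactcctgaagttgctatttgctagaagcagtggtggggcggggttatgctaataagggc
Ifit1: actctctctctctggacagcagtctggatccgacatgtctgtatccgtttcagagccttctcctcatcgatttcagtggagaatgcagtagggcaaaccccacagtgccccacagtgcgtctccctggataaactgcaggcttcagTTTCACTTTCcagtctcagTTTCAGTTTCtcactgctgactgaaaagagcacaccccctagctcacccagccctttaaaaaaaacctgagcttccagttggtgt
Each window holds 2 matches. Of the 18 genes that fell 12 had an entry, and 8 of these held the element in the 300-base window (66.7%). It was found in 3.85% of the tested genes with an entry and 3.99% of all genes of the promoter table. Interferon-stimulated genes that did not fall were not counted apart, so this share too describes the list and not the fall. Bst2, which tethers enveloped viruses to the cell, went from 23.8, 21.9, 22.8 and 24.6 RPKM to 15.2, 17.6, 18.7 and 18.6. Ifit1, which binds foreign RNA, went from 13.2, 8.25, 8.04 and 11.2 RPKM to 7.28, 6.61, 4.44 and 4.20 (-0.76 ± 0.20, adjusted p = 0.0179). In both genes the days did not overlap. The Ifit1 call was lost without mouse A7 or A12 of day 7 or A6 of day 14 (adjusted p = 0.0764, 0.0659 and 0.0735).

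Some chemokines fell, 4 of 19 genes of the cytokine and chemokine list. Ccl2, the main ligand of the receptor CCR2 (chromosome 11, 82035571 to 82037453), went from 6.003, 3.38, 5.12 and 4.09 RPKM to 1.71, 1.33, 0.985 and 2.40 (-1.12 ± 0.17, adjusted p = 0.0003), on 76 to 118 reads per library at day 7 and 23 to 52 at day 14. Cxcl10, an interferon-induced chemokine, went from 0.900, 0.270, 0.895 and 1.39 RPKM to 0.140, 0.265, 0.130 and 0.140, so that mouse A9 of day 7 and mouse A5 of day 14 nearly touched. Cxcl9 and Cxcl16, chemokines that draw T cells, did not pass (-0.50 ± 0.21, adjusted p = 0.12, and -0.17 ± 0.12, adjusted p = 0.348). In the list 2 fell without A7 of day 7 or A5 of day 14. The 1 gene that rose was Mif, a cytokine that many cell types express (0.37 ± 0.10, adjusted p = 0.0186), a call lost without A7 of day 7 or A5 or A6 of day 14 (adjusted p = 0.0794, 0.0655 and 0.0611), and with equal read totals or quantile normalization (adjusted p = 0.241 and 0.211).

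Part of the macrophage list fell. Of 35 genes 5 fell and 0 rose, where 5.56% of all genes tested fell and 7.49% rose. The list's median was -0.16, and 2 fell without mouse A7 or A12 of day 7 or A5 or A11 of day 14. Cx3cr1, the fractalkine receptor of monocytes and macrophages, went from 6.08, 3.31, 4.80 and 4.69 RPKM to 1.80, 1.29, 1.21 and 2.56 (-1.08 ± 0.24, adjusted p = 0.00756). Cd68, a lysosomal protein of macrophages, went from 9.21, 8.26, 8.06 and 8.62 RPKM to 6.82, 5.08, 4.58 and 4.52 (-0.62 ± 0.14, adjusted p = 0.00824). The days did not overlap in either gene. C3ar1, the receptor for complement C3a, fell too (-0.51 ± 0.10, adjusted p = 0.00201). The abundant markers did not pass: Lyz2, macrophage lysozyme, had a log2 difference of -0.10 ± 0.13 (adjusted p = 0.648), and Csf1r, the receptor for the macrophage growth factor, one of 0.01 ± 0.12 (adjusted p = 0.961). Summed over 7 macrophage markers the level was 315 to 339 RPKM at day 7 and 255 to 351 at day 14.

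Of 10 genes of antigen presentation by MHC class II and dendritic cells 3 rose and 0 fell. H2-Ab1, a chain of the class II molecule, went from 16.8, 16.7, 14.3 and 11.8 RPKM to 27.8, 25.5, 33.5 and 21.4 (0.81 ± 0.22, adjusted p = 0.0223), with no overlap. Cd74, the invariant chain that escorts class II, and H2-Eb1 rose as well, while 5 genes of the list were at an unadjusted p under 0.05 and 3 were called by voom. With equal read totals 1 rose and with quantile normalization 1, since Cd74 (adjusted p = 0.0607 and 0.0514) and H2-Eb1 (0.0805 and 0.0618) no longer passed. These calls rested on single libraries: 0 passed under limma without A12 of day 7, A5 of day 14 or A6 of day 14, where the adjusted p of H2-Ab1 was 0.0841, 0.0513 and 0.0882. Without A7 or A10 of day 7, 1 passed.

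Part of the nuclear genes of the mitochondrial respiratory chain rose by small amounts. Of 78 nuclear-encoded genes of oxidative phosphorylation 29 rose and 0 fell, and the log2 difference was positive in 76. The list's median was 0.29. Of 10 genes encoded in the mitochondrial genome 0 passed under limma, 0 under voom and 1 at an unadjusted p under 0.05 (median 0.23). By complex, 17 of 37 genes of complex I rose, 3 of 9 of complex III and 5 of 13 of complex IV. Ndufa13, a complex I subunit (chromosome 8, 69894180 to 69902558), went from 183, 238, 207 and 169 RPKM to 283, 341, 346 and 299. Uqcr11, a complex III subunit, went from 346, 435, 400 and 328 RPKM to 508, 636, 665 and 592. Both means were 1.59-fold higher at day 14 with no overlap (limma adjusted p = 0.000979 and 0.000762).

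The count of these rises went down or up with the scaling and with single mice. The median of the oxidative phosphorylation list was 0.13 with equal read totals (5 genes rose) and 0.06 with quantile normalization (6 rose and 3 fell). After adjustment for GC content and length 22 rose. Without mouse A7 or A12 of day 7, 8 and 6 rose, and without A5 or A6 of day 14, 12 and 6. More rose without A9 of day 7 (34), without A4 of day 14 (35) and with Xist detection as a covariate (47). The rise went with the summed cardiomyocyte markers, whose ranges did not overlap between the days. It also went with the share of reads on mitochondrial genes, 21.01% to 24.3% at day 7 and 23.3% to 25.2% at day 14. The part of either in the result was not tested.

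Other fuel genes held fewer calls. In the tricarboxylic acid cycle and fatty acid oxidation 7 of 53 rose and 0 fell (median 0.23). In glycolysis and glucose uptake 8 of 25 rose and 0 fell (median 0.24), and 0 rose without A7 or A12 of day 7 or A5 or A6 of day 14. Among mitochondrial ribosomal proteins 18 of 74 rose and 0 fell (median 0.18). Idh2, the mitochondrial NADP-linked isocitrate dehydrogenase, went from 463, 609.5, 613 and 419 RPKM to 708, 789.7, 981 and 740.4 (0.62 ± 0.15, adjusted p = 0.0096). Ppara, a nuclear receptor for fatty acids, rose by 0.37 ± 0.10 (adjusted p = 0.0187) with no overlap, a call lost without A7 of day 7 or A5 or A6 of day 14 (adjusted p = 0.0738, 0.0574 and 0.0864), and with equal read totals (adjusted p = 0.174). Its coactivator Ppargc1a rose by 0.45 ± 0.15 (adjusted p = 0.0492), a call lost without any of A7, A9, A10 or A12 of day 7 or A5 or A11 of day 14 (adjusted p 0.0596 to 0.161), and with equal read totals (adjusted p = 0.19). With equal read totals the lists held 1, 0 and 1 rises in this order. Without A7 of day 7 they held 1, 0 and 3, without A12 2, 0 and 3, without A5 of day 14 1, 0 and 3, and without A6 2, 0 and 3. For cytosolic ribosomal proteins 10 of 82 rose, and that list's median of 0.09 turned to -0.06 with equal read totals and -0.05 with quantile normalization.

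**Figure D3:**
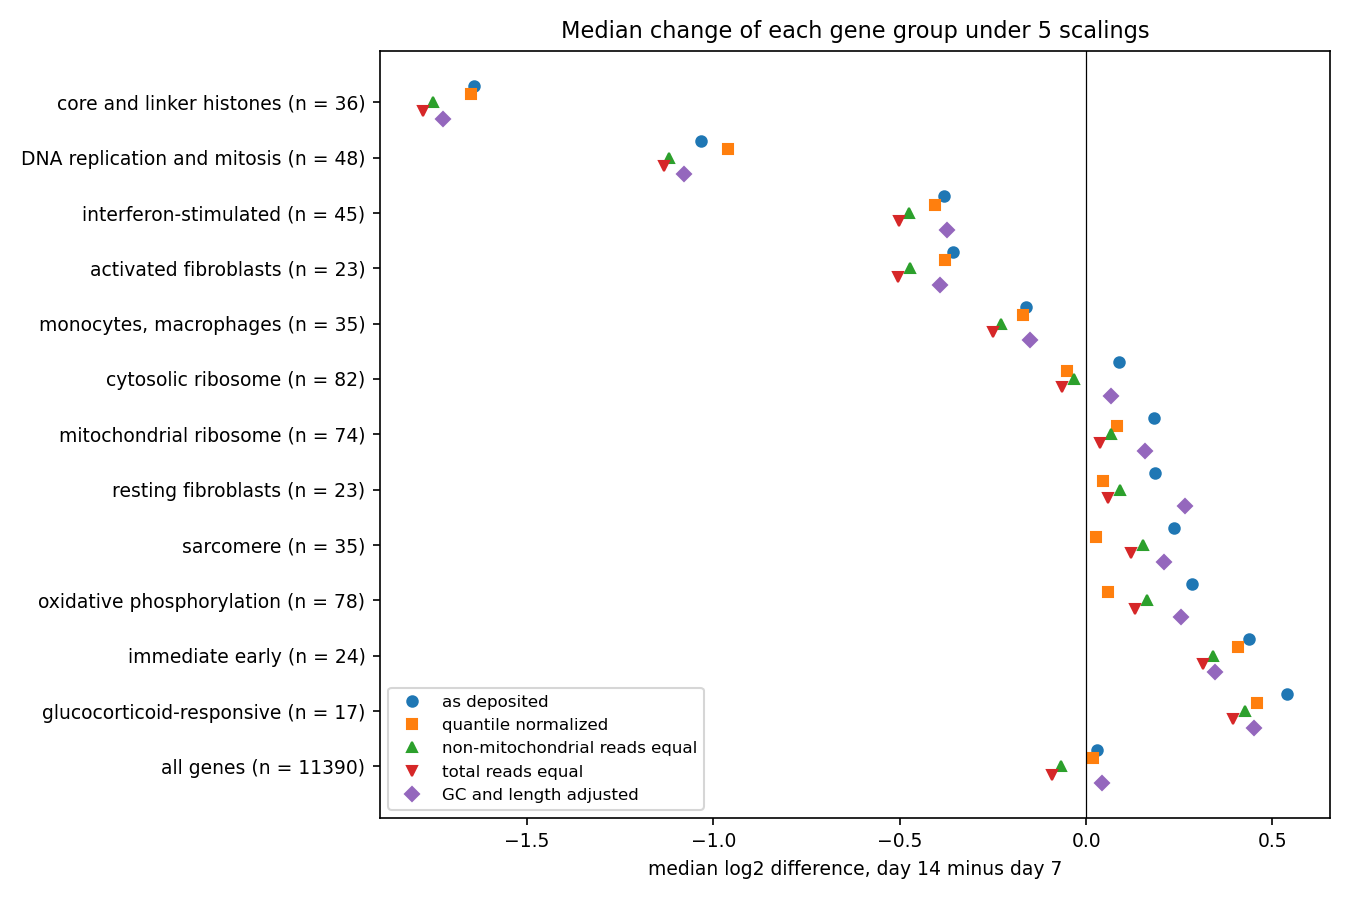
Median log2 difference of each gene group between day 14 and day 7 (x axis) under the deposited scaling and the others, marked by shape. The histone, cell division and interferon medians lie below 0 under each, while the sarcomere median goes from 0.24 as deposited to 0.03 with quantile normalization.

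Sarcomere genes rose in 7 of 35 cases with 0 falls and a median of 0.24. Myh7, the slow beta myosin heavy chain of the fetal and stressed heart (chromosome 14, 54970684 to 54994626), had the largest log2 difference of all genes that rose. It went from 28.5, 40.9, 35.6 and 25.8 RPKM to 119, 94.5, 174 and 49.4 (1.59 ± 0.45, adjusted p = 0.0294). No day 14 mouse reached down to day 7, but the day 14 mice differed widely among themselves, with A6 the highest and A11 the lowest. The call was lost without A7 or A12 of day 7 and without A4, A5 or A6 of day 14 (adjusted p = 0.0851, 0.0892, 0.053, 0.0678 and 0.112), and with equal read totals or quantile normalization (adjusted p = 0.0685 and 0.0515). Myh6, the alpha heavy chain of the adult mouse ventricle, did not pass (0.32 ± 0.13, adjusted p = 0.115), but did with Xist detection as a covariate (adjusted p = 0.0231). Its mean was 3812 RPKM at day 7 and 4751 at day 14, far above Myh7 on this per-length scale.

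Myom2, a myomesin of the M-band, rose from 148, 191, 160.1 and 135 RPKM to 281, 291, 305 and 238 (0.82 ± 0.11, adjusted p = 0.000142). Mybpc3, myosin-binding protein C, rose 1.36-fold (0.45 ± 0.10, adjusted p = 0.00764), and Ckm, muscle creatine kinase, rose by 0.64 ± 0.13 (adjusted p = 0.00438). No single library ended these calls. Mybpc3 no longer passed with equal read totals (0.29, adjusted p = 0.0727) or quantile normalization (0.14, adjusted p = 0.332), while Ckm passed at 0.49 and 0.40 (adjusted p = 0.0106 and 0.0194). The natriuretic peptide genes Nppa and Nppb, markers of wall stress, did not pass (adjusted p = 0.343 and 0.447). Nppa stood at 649.9, 404, 318 and 504 RPKM at day 7 and 834, 617, 599.7 and 904 at day 14, so the days overlapped. Ryr2, the calcium release channel, had a log2 difference of 0.00 ± 0.10 (adjusted p = 0.989), and Atp2a2, the calcium pump of the sarcoplasmic reticulum, did not pass (0.25 ± 0.13, adjusted p = 0.233). The number of sarcomere genes that rose was 1 with equal read totals and 1 with quantile normalization. It was 3 and 2 without A7 or A12 of day 7 and 2 and 3 without A5 or A6 of day 14.

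Some genes of quiet fibroblasts rose. Gsn, gelsolin, an actin-severing protein abundant in cardiac fibroblasts (chromosome 2, 35256380 to 35307892), went from 191, 269, 228 and 199 RPKM to 569, 659, 576 and 445. All day 14 mice lay above all day 7 mice, at 2.54-fold the mean (1.34 ± 0.13, adjusted p = 7.10e-06). Fbln1, a matrix fibulin, went from 9.61, 14.04, 10.1 and 11.96 RPKM to 19.9, 21.4, 19.8 and 15.5 (0.70 ± 0.13, adjusted p = 0.00139). Of 23 genes of resting fibroblasts 7 rose and 1 fell (median 0.19), with 4 rises without A7 or A12 of day 7 or A5 or A6 of day 14. With equal read totals 3 rose and 1 fell (median 0.06), and with quantile normalization 6 rose and 1 fell (median 0.04). The identity markers Pdgfra (0.06 ± 0.07, adjusted p = 0.654) and Tcf21 (-0.26 ± 0.14, adjusted p = 0.241) did not pass. Summed over 6 fibroblast markers the level was 667 to 825 RPKM at day 7 and 851 to 1216 at day 14. The mean of the sum went from 736 to 1070 RPKM, and that of Gsn alone, which is 1 of the 6, from 222 to 562, so that Gsn accounted for the whole rise of the sum.

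In the list of 23 activated fibroblast genes 0 passed under limma and 0 under voom, with 5 at an unadjusted p under 0.05. In a fit on only the 8 compared libraries 4 fell, and with Xist detection as a covariate 5 fell, Postn (adjusted p = 0.0425 and 0.0353) and Lox (0.00413 and 0.0198) among them. As deposited, over the 20 libraries, 19 of the genes had a negative log2 difference and the median was -0.36. Postn, periostin of the healing matrix, stood at 140.1, 107, 70.3 and 113 RPKM at day 7 and 75.4, 50.3, 29.02 and 40.1 at day 14 (-1.17 ± 0.48, adjusted p = 0.119), with mouse A10 of day 7 under mouse A4 of day 14. Lox, which cross-links collagen, stood at 8.21, 7.76, 5.45 and 7.65 against 4.38, 2.08, 2.27 and 2.25 (-1.17 ± 0.38, adjusted p = 0.0526), with no overlap. Among 10 fibrillar collagens 0 passed under limma, 0 under voom and 0 at an unadjusted p under 0.05 (median -0.39). The series is titled for type V collagen in the scar. In the remote wall Col1a1, Col1a2, Col3a1, Col5a1, Col5a2 and Col5a3 had log2 differences between -0.58 and -0.37 and adjusted p between 0.252 and 0.483, with overlapping days. Col5a1 stood at 13.8, 17.3, 14.7 and 20.01 RPKM and then at 15.1, 11.7, 10.1 and 12.2, and Col3a1 at 148, 157, 115 and 179.9 and then at 124, 112, 75.2 and 90.2.

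Of 13 basement membrane genes 1 rose and 3 fell, and 0 rose and 2 fell without A7 or A12 of day 7 or A5 or A6 of day 14. Nid2, a nidogen that links laminin to collagen IV, fell from 12.7, 12.2, 12.1 and 15.4 RPKM to 9.24, 6.95, 8.19 and 10.2 (-0.55 ± 0.11, adjusted p = 0.00345). Lama4, the laminin alpha chain of vessels, fell by 0.36 ± 0.08 (adjusted p = 0.00542). The 1 that rose was Lamb2, a laminin beta chain (0.45 ± 0.13, adjusted p = 0.0275). In the list of 27 matrix proteases and their inhibitors 3 rose and 4 fell. Plau, the urokinase protease, fell 2.01-fold in the mean (-0.83 ± 0.16, adjusted p = 0.00202). The rises were Timp3, an inhibitor of metalloproteases (0.71 ± 0.20, adjusted p = 0.027), the gelatinase Mmp2 (0.56 ± 0.17, adjusted p = 0.0389) and the serine protease Htra3 (0.58 ± 0.18, adjusted p = 0.0376). The Timp3 days overlapped, and its call was lost without any of 6 single libraries (adjusted p 0.0581 to 0.1). The calls of Mmp2 and Htra3 were each lost without any of 5 (adjusted p up to 0.119 and 0.155). With equal read totals 0 of this list rose and 4 fell, and with quantile normalization 1 rose and 4 fell. Without A7 of day 7, 0 rose and 2 fell, and without A5 or A6 of day 14, 0 rose and 1 fell. Among 32 endothelial genes 4 rose and 3 fell, and 1 fell without A7, A10 or A12 of day 7 or A5 or A6 of day 14. With equal read totals 1 rose and 8 fell, and with quantile normalization 3 rose and 7 fell. Aqp1, a water channel of the microvessels, rose from 70.2, 121, 90.4 and 74.3 RPKM to 146, 218, 198 and 166 (1.04 ± 0.17, adjusted p = 0.000605), with no overlap. Flt1, a VEGF receptor, rose by 0.41 ± 0.10 (adjusted p = 0.01), a call lost with equal read totals (adjusted p = 0.0776). Pecam1, a junction protein of all endothelium, fell from 55.98, 53.9, 50.4 and 51.4 RPKM to 45.9, 44.3, 42.2 and 42.9 (-0.27 ± 0.06, adjusted p = 0.0079). Summed over 5 endothelial markers the level was 179.8 to 204 RPKM at day 7 and 145 to 180 at day 14, and its part in these values was not tested.

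Some hormone- and stress-responsive genes rose. Among 17 glucocorticoid-responsive genes 5 rose and 0 fell, with a median of 0.54. Tsc22d3, the glucocorticoid-induced leucine zipper, went from 17.9, 32.6, 20.2 and 20.3 RPKM to 41.8, 83.8, 53.5 and 36.9 (1.18 ± 0.25, adjusted p = 0.00521). Ddit4, which restrains the growth kinase mTORC1, went from 9.41, 13.4, 6.43 and 7.94 RPKM to 15.5, 42.5, 21.1 and 26.5 (1.36 ± 0.33, adjusted p = 0.0137), a call lost without mouse A5 of day 14 (adjusted p = 0.0544). Mice A9 of day 7 and A5 of day 14 were the highest of their day in both genes. The list held 1 rise without A5 of day 14, 2 without A7 or A12 of day 7, and 3 without A10 of day 7 or A6 of day 14. With equal read totals 2 rose, with equal totals outside mitochondrial and ribosomal RNA genes 2, and with quantile normalization 2. The hour of tissue collection is not given in the sources used here. Of 21 clock genes 2 rose, a share close to the 7.49% of all genes tested. One was Cry1, a repressor of the clock (0.75 ± 0.16, adjusted p = 0.00551). Without A11 of day 14, 7 clock genes rose and 2 fell.

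Immediate early genes, which switch on within minutes of stimulation or handling, rose in 6 of 24 cases with 0 falls (median 0.44). Ier5 went from 10.6, 11.1, 9.57 and 10.9 RPKM to 22.2, 24.00, 18.2 and 12.5 (0.77 ± 0.16, adjusted p = 0.00471), with no overlap. Atf3, a stress-induced transcription factor, went from 3.20, 5.08, 3.26 and 2.63 RPKM to 27.02, 19.6, 9.19 and 4.15 (1.57 ± 0.45, adjusted p = 0.0327). Mouse A11 of day 14 lay within the day 7 range, and the Atf3 call was lost without any of A7, A10 or A12 of day 7 or A4, A5 or A6 of day 14 (adjusted p 0.0594 to 0.107), and with equal read totals (adjusted p = 0.0579) or voom (adjusted p = 0.0688). Fos and Egr1, transcription factors of the same group, did not pass (adjusted p = 0.573 and 0.729). The list held 2 rises without A7, A10 or A12 of day 7 or without A4 or A5 of day 14. It held 2 with equal read totals and 5 with quantile normalization.

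Among secreted factors, Gdf15, a cytokine of cell stress, went from 0.344, 0.219, 0.176 and 0.400 RPKM to 2.50, 2.19, 1.05 and 1.79. That is 6 to 14 reads per library at day 7 and 40 to 88 at day 14 (1.14 ± 0.26, adjusted p = 0.00959). Igfbp3 and Igfbp6, which bind insulin-like growth factors, rose by 0.86 ± 0.15 and 0.99 ± 0.20 (adjusted p = 0.00119 and 0.00459). H19, an imprinted noncoding RNA next to Igf2, fell by 0.59 ± 0.16 (adjusted p = 0.0233), a call lost without A7 of day 7 or A6 of day 14 (adjusted p = 0.0973 and 0.0608). Scgb1c1, a secretoglobin, went from 14.1, 11.1, 10.4 and 9.76 RPKM to 37.3, 33.8, 36.1 and 29.9 (1.52 ± 0.15, adjusted p = 8.06e-06). Cdkn1c, an inhibitor of the cell cycle, rose from 7.24, 8.17, 4.94 and 5.19 RPKM to 15.7, 16.5, 13.7 and 8.90 (0.98 ± 0.22, adjusted p = 0.00747), and Cebpb, a transcription factor of inflammation, rose by 1.07 ± 0.22 (adjusted p = 0.00387). The days did not overlap for Gdf15, Scgb1c1 or Cdkn1c.

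The scar of the same hearts took a different step. In a model with the mouse as a block, 2659 genes (23.3%) had a day 7 to day 14 change that differed between the regions, 1444 with the remote difference above that of the scar and 1215 below. Of these, 468 also passed in the remote region. Without mouse A10 of day 7, 1606 genes differed. Many muscle genes had a larger difference in the scar: 25 of 35 sarcomere genes and 40 of 78 of oxidative phosphorylation had a lower difference in the remote region, and 0 a higher one. Myh7 rose by 1.59 remotely and 3.80 in the scar (difference -2.20 ± 0.53, adjusted p = 0.00649). The scar libraries had 2.27% to 4.05% of reads on mitochondrial genes at day 7 and 4.54% to 8.29% at day 14. The part of the muscle content of the scar pieces in these differences was not tested. In the macrophage list the remote difference was above that of the scar for 27 of 35 genes and below for 1. Lyz2 went from a mean of 162 to 152 RPKM remotely and from 1119 to 407 in the scar (difference 1.35 ± 0.18, adjusted p = 4.52e-05).

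Cell division genes had a median difference of -1.03 in the remote wall and -0.71 in the scar. The difference between the regions passed for 13 of 48, a share close to the 23.3% of all genes tested. The remote value was the lower one in 13, as it was for 1215 of all 11390 genes tested. Mki67 had a log2 difference of -2.20 remotely and -1.19 in the scar (difference -1.01 ± 0.26, adjusted p = 0.00894). Its day 7 mean was 16.7 RPKM in the remote region and 13.3 in the scar. The ratio of recovered reads to deposited size was 1.43 to 1.585 in those remote libraries and 0.94 to 0.97 in those of the scar. The means are thus on unlike scales, and which region was higher was not tested. Atf3 had a log2 difference of 1.57 remotely and -0.92 in the scar (difference 2.49 ± 0.41, adjusted p = 0.000475), and H19 one of -0.59 and -2.73 (difference 2.15 ± 0.23, adjusted p = 1.02e-05). Interferon-stimulated genes differed in 3 of 45 cases, against 23.3% of all genes tested.

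**Figure D4:**
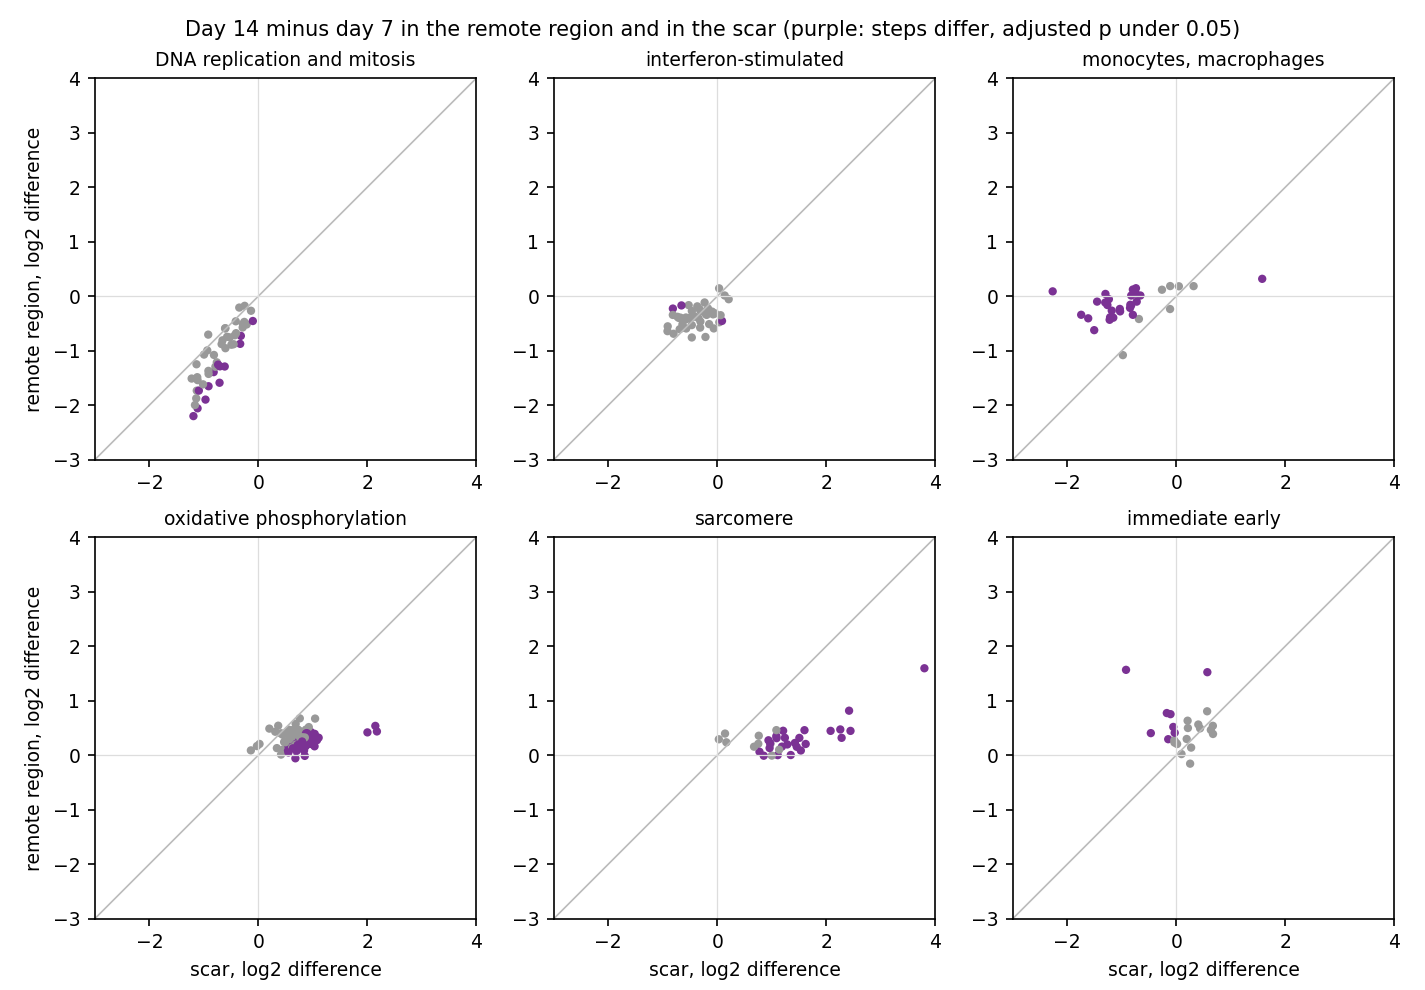
Each point is a gene, with its log2 difference between day 14 and day 7 in the scar on the x axis and in the remote region on the y axis, and a separate colour where the steps differ (limma adjusted p under 0.05). Points of cell division lie in the lower left, and the sarcomere points lie to the right of the diagonal apart from Acta1, Des and Neb.

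Across the 5 days 5375 genes (47.2%) changed in the remote region by an F test. Between day 14 and day 21, 1 gene passed (0.00878%). Day 7 stood apart from its neighbours in several genes. Mki67 had means of 5.44, 16.7, 2.82 and 3.11 RPKM on days 3, 7, 14 and 21, Ndufa13 of 319.6, 199, 317 and 327, and Gsn of 341, 222, 562 and 591. The medians of the cell division list were 0.90 for day 7 minus day 3 and -1.03 for day 14 minus day 7, and those of the oxidative phosphorylation list were -0.29 and 0.29. Both steps use the same day 7 libraries, so their values are given side by side only.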

How the data were processed

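RNA of the remote and scar regions was extracted with an RNeasy Mini kit and made into libraries with an Illumina TrueSeq RNA kit, per the labels' protocols. The authors deposited 1 table of RPKM values for 40 libraries. The submitters' processing notes name STAR, edgeR and mm10 without versions or roles. No source used here states the filters or transcript lengths behind the RPKM. Mice that carry the same label on different days were treated as different animals, since the hearts were taken at harvest.

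Values for all 11450 genes were whole multiples of 1 read within 0.01 read (100% of genes), which gave 12123945 to 33596397 reads per library over the series. These recovered reads served to check depth and scaling. Genes with at least 1 RPKM in 4 libraries were kept. limma 3.58.1 in R 4.3.3 (trend and robust moderation, statmod 1.5.0) was run on log2(RPKM + 1), and p-values were adjusted over all 11390 genes. The script was tested on simulated data. The numbers pair scar and remote libraries because both come from the same heart, and the correlation of their deviations from the group means was 0.15 to 0.54 in 20 mice. Nothing in the labels says how the mice of a day were housed or operated. The p-values of the remote step set the change against the spread between mice within a day, pooled over the 20 remote libraries. A harvest or library batch that followed the day could not be told apart from it.

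Genes were named by rule: the 12 largest rises and falls without overlap, the 4 smallest p of each gene list, 6 collagen genes, and the 6 largest differences from the scar in each direction, with further list members where a list is described by role. Members and lists were chosen with earlier results of these data known. Values of 2 genes are not reported here. Promoters came from RefSeq tables of GRCm38.p6. Alternatives covered the pseudocount, filters, scaling, the libraries in the fit, moderation, Xist detection, GC content and length, and single libraries left out.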

Additional observations from a re-analysis of the deposited data

Results flagged for a closer look

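In 15 of 176 groups of 4 mice looked at, 1 mouse lay farther from its neighbour than Dixon's limit allows, and chance gives about 1 in 20. Mouse A12 of day 7 lay below the others in H2-Eb1 at 17.6 RPKM. Mouse A9 of day 7 lay above the others in Nr4a1 at 8.80 RPKM and Tsc22d3 at 32.6 RPKM. Mouse A9 of day 7 lay below the others in Cenpe at 2.35 RPKM, Hist1h1a at 23.3 RPKM and Kif11 at 5.05 RPKM. Mouse A11 of day 14 lay above the others in Hist1h1a at 9.75 RPKM and Hist1h1b at 11.3 RPKM. Mouse A4 of day 14 lay above the others in Lox at 4.38 RPKM. Mouse A5 of day 14 lay above the others in Cxcl10 at 0.265 RPKM and Htra3 at 7.61 RPKM. Mouse A5 of day 14 lay below the others in Ryr2 at 226 RPKM. Mouse A6 of day 14 lay below the others in Cenpe at 0.311 RPKM, Igfbp3 at 11.5 RPKM and Mki67 at 1.59 RPKM. The direction of the day 7 to day 14 step did not rest on these values for Mki67, Cenpe, Kif11, Hist1h1a and Tsc22d3, whose calls held without any single library.

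The step differed between the remote region and the scar for 2659 genes, by a test of the difference with the mouse as a block. The genes given here are those named for the largest changes without overlap, or for the largest differences from the scar among genes called remotely. Other list members that differed from the scar are left out. The remote log2 difference exceeded that of the scar by 0.94 for Ddit4, 2.49 for Atf3, 2.15 for H19, 1.43 for Tgfbi, 1.43 for Apoe, 1.42 for Ctsd and 1.40 for Emilin2. It was the lower of the pair, with a remote minus scar value of -2.20 for Myh7, -1.04 for Gsn, -1.66 for Myoc, -0.61 for Tsc22d3, -1.05 for Hist1h1a, -1.21 for Hist1h2bb, -1.21 for Hist1h2bn and -1.01 for Mki67. The value was -1.58 for Hist1h2ai, -1.12 for Hist1h3b, -0.94 for Top2a, -1.19 for Pbk, -2.95 for Cytl1, -1.997 for Myl3, -1.83 for Angptl7, -1.78 for Tnni3 and -1.74 for Cox6a2.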

How the results depend on the processing

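The counts of changed genes moved most with scaling and with single mice. Genes that rose numbered 853 as deposited, 525 after quantile normalization, 117 with equal totals of recovered reads and 281 with equal totals outside mitochondrial and ribosomal RNA genes. Genes that fell numbered 633 as deposited, 1010 and 1186 under the last 2 scalings, and 390 with at least 5 RPKM in 4 libraries, where fewer genes were tested. With Xist detection as a covariate 2393 genes changed and 1493 rose. The cause was not tested. Leaving out each library in turn gave 613 to 1807 changed genes, 244 to 1058 rises and 357 to 749 falls, and leaving out each mouse gave 1606 to 2866 genes that differed from the scar. That difference was called for 2023 genes with no replicate block and 2775 with the replicate block as a random effect. With quantile normalization it was called for 3341 genes, and it was not tested with equal read totals. A set of 60 called genes of the text was followed through the settings. It left out some genes named only for their difference from the scar, such as Tgfbi, Myl3, Tnni3 and Cox6a2. Of the 60, 46 to 60 were still called under the other settings and 45 to 59 without each library, and 0 changed sign. A planned count test was not run. Adjustment for GC content and length, the scaling outside mitochondrial and ribosomal RNA genes, and voom on recovered reads (1416 changed genes) were chosen after seeing the data. The lowest levels rest on few reads, as the 6 to 14 of Gdf15 at day 7.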
